A study of Mus musculus with 12 samples.

Results

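The genes described here are receptors and ligands of the TNF superfamily that act in T cell costimulation: Tnfrsf4 (OX40), Tnfrsf8 (CD30), Tnfrsf9 (4-1BB), Tnfrsf14 (HVEM), Cd27, Cd40lg, Tnfsf4 (OX40 ligand), Tnfsf8 (CD30 ligand) and Tnfsf11 (RANKL). They were chosen by name, as the probes of a NanoString mouse immunology panel that carry these symbols, and 8 of the 9 genes were measured among 547 endogenous genes of the panel. Tnfsf4 was not analysed here. RNA was counted in 12 samples of a mouse model of cutaneous lupus, in which CD4+ T cells with the DO11.10 receptor, specific for an ovalbumin peptide, cause skin lesions in recipients that express ovalbumin.

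The cultures were 3 Th2, 2 Th1 and 1 Th0 sample of DO11.10 T cells on the BALB/c background. All were activated with peptide-pulsed irradiated splenocytes, kept in IL-2, activated a second time without new skewing agents and harvested after 10 days. Th2 cells received IL-4 with antibodies to IFN-gamma and IL-12 p40, Th1 cells received IFN-gamma with an antibody to IL-4, and Th0 cells were not skewed. Experiment 1 gave 1 Th2 and 1 Th1 culture, and experiment 2 gave a male and a female Th2 culture, 1 Th1 culture and the Th0 culture. They are numbered here as Th2 samples 1 to 3 and Th1 samples 1 and 2, where Th2 samples 2 and 3 are the male and the female culture of experiment 2. The skin samples came from 3 mice at their first lesions, about 4 weeks after injection of Th2 cells (mice 1, 3 and 6, skin scores 1, 3 and 3), and from 3 mice at flare, at about 12 weeks (mice 1, 2 and 12, skin scores 1, 0.5 and 2). All were of experiment 1 except flare mouse 12. Recipients were sublethally irradiated Ii-TGO mice, in which the invariant chain promoter drives doxycycline-induced ovalbumin, so that MHC class II+ cells in general are likely to make it. At flare, doxycycline had been withdrawn and given again without new T cells. The labels do not give the TLR9 genotype of these recipients, whether the donors lacked Rag1, or whether mouse 1 of both stages is 1 animal, and p-values measure only the spread between these samples.

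TNF superfamily receptors have no enzyme activity of their own. When a ligand clusters them, they recruit TRAF adaptor proteins and switch on NF-kB and survival signals. OX40, CD30 and 4-1BB appear on T cells after activation, CD27 is carried by naive T cells too, and CD40 ligand, CD30 ligand and RANKL are the signals that activated T cells give to B cells, dendritic cells and other partners.

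Of the 8 genes measured, 8 matched the mouse RefSeq annotation (assembly GRCm38.p6, C57BL/6J) by symbol and accession. Tnfrsf4 (chr4:156013595-156016613), Tnfrsf8 (chr4:145267132-145315164), Tnfrsf9 (chr4:150920155-150946104), Tnfrsf14 (chr4:154918487-154928620) and Tnfsf8 (chr4:63831202-63861508) lie on chromosome 4, Cd27 on chromosome 6, Tnfsf11 on chromosome 14 and Cd40lg on chromosome X. Promoters are shown for the genes that were higher in Th2 than in Th1 cultures below, and for the receptors Tnfrsf8 and Tnfrsf9, whose levels followed that of Tnfrsf4 across the cultures. Tnfrsf14 followed Tnfrsf4 too, less closely than these (Pearson's r 0.84, against 0.94 and 0.88), and its promoter is not shown. Each runs 5′ to 3′ from 250 bases before to 50 bases after an annotated transcript start (RefSeq, GRCm38.p6), and capitals mark matches to an AP-1 or NF-kB motif.
Tnfrsf4, chr4:156013445-156013744, plus strand: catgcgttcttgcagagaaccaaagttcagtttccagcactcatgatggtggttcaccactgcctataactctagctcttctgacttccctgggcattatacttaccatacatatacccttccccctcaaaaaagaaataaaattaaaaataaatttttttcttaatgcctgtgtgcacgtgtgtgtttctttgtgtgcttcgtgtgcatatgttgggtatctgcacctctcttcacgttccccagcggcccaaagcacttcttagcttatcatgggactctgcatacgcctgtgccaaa
Cd27, chr6:125236978-125237277, minus strand: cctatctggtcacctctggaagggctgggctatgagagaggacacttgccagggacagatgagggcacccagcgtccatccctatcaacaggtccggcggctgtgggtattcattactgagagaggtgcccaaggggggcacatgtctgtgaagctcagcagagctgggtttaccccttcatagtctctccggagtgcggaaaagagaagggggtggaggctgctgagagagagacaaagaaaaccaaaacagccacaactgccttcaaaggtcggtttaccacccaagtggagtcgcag
Tnfsf8, chr4:63861235-63861534, minus strand: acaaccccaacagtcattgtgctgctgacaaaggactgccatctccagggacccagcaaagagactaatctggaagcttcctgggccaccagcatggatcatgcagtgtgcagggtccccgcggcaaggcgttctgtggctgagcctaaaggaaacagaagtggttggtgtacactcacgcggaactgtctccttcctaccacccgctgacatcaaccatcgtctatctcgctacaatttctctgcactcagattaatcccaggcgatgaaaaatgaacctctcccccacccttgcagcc
Tnfsf11, chr14:78307994-78308293, minus strand: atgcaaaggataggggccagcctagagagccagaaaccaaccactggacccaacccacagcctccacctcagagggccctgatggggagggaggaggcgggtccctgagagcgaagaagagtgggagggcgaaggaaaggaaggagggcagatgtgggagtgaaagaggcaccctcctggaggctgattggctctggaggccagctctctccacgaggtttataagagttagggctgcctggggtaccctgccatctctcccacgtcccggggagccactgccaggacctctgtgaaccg
Tnfrsf8, chr4:145315115-145315414, minus strand: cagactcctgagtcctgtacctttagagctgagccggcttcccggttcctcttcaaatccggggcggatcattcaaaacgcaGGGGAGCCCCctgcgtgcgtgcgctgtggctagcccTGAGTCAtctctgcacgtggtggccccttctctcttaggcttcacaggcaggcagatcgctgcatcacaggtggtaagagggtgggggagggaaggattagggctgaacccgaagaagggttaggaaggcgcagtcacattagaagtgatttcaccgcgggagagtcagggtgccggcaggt
Tnfrsf9, chr4:150927749-150928048, plus strand: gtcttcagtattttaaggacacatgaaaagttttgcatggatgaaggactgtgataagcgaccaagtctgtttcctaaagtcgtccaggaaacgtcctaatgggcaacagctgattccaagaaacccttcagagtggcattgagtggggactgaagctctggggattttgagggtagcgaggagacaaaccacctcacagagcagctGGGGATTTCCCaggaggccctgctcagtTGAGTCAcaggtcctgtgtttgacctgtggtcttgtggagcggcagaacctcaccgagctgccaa
Motifs were searched on both strands. The AP-1 motif was written TGANTCA, the motif of GATA factors was written AGATAA, and the STAT motif was TTC and GAA with any 4 bases between them. For NF-kB the kappaB consensus was used. The promoter of Tnfrsf8 and the second annotated start of Tnfrsf9 each held an AP-1 match of the letters TGAGTCA and at least 1 NF-kB match, and both NF-kB matches of Tnfrsf9 overlap. Of 32851 mouse promoters of this length, 7.81% held the AP-1 motif, 4.51% the NF-kB motif, 11.2% the GATA motif and 6.95% the STAT motif. A promoter was listed for 7 of the 8 genes, all but Cd40lg. The other promoters of these 7 genes, among them the first start of Tnfrsf9, held none of the 4 motifs in this window. These are matches of letters in the C57BL/6J reference and not measured binding sites.

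Endogenous counts summed to between 417917 and 481131 in the cultures and between 25925 and 131229 in the skin samples. The limit of detection was the mean plus 2 SDs of the 8 negative control probes of a sample, which lay between 17.4 and 46.3 counts in skin samples. Levels are given as scaled counts, that is counts divided by a factor from 7 housekeeping genes, and a gene is called changed at an adjusted p under 0.05 (edgeR's quasi-likelihood test over all genes tested, Benjamini-Hochberg). In the Th2 cultures 8 of 8 genes lay above the limit in every sample, and 6 and 7 of them did in Th1 samples 1 and 2.

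Th2 cultures were compared with Th1 cultures to ask which costimulatory genes differ between the skewed cells before injection. Tnfrsf4, Cd27, Tnfsf11 and Tnfsf8 were higher in Th2 cultures, and none of the 8 genes was lower. For comparison, 27.2% of the 400 genes tested were called higher and 4.5% lower. The median log2 fold change was 1.52 over the 8 genes and 0.58 over all genes tested, which was 0.02 when samples were scaled by TMM factors in place of housekeeping genes.

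Tnfrsf4 encodes OX40, a receptor that prolongs the survival of activated CD4+ T cells. It was at 914, 892 and 1041 scaled counts in the Th2 cultures and at 344 and 133 in the Th1 cultures, with 475 in the Th0 culture. The lowest Th2 culture lay above the highest Th1 culture, and the Th0 culture lay between them. Its log2 fold change was 1.99 (SE 0.44, adjusted p = 0.0109), and it passed under each of 16 alternative settings, at 1.23 to 2.83. Both experiments had more Tnfrsf4 in Th2 cells, by 1.41 (the first) and 2.86 (the second) on the log2 scale.

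Tnfrsf8 encodes CD30, which is induced on activated T cells. It was at 906, 1234 and 1019.7 scaled counts in the Th2 cultures, 679 and 149 in the Th1 cultures and 503 in the Th0 culture. The Th1 cultures differed more from each other than Th1 sample 1 did from the lowest Th2 culture. The log2 fold change of 1.35 (SE 0.56, adjusted p = 0.0875) did not pass. Within the first experiment Th2 exceeded Th1 by 0.42 on the log2 scale, and within the second by 2.92. Without Th1 sample 1 the fold change was 2.82 (adjusted p = 0.00167), and without Th1 sample 2 it was 0.63 (adjusted p = 0.207). With TMM factors the ratio of experiment 1 was -0.10.

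Tnfrsf9, the gene of the costimulatory receptor 4-1BB, likewise had unlike ratios in the experiments, a difference that was not tested. It was at 29.1, 67.7 and 87.6 scaled counts in the Th2 cultures, 31.3 and 7.13 in the Th1 cultures and 20.1 in the Th0 culture. The groups overlapped, since Th2 sample 1 lay below Th1 sample 1. The log2 fold change was 1.69 (SE 0.66, adjusted p = 0.0760). Within the first experiment Th2 minus Th1 was -0.10 on the log2 scale, and within the second it was 3.45. Leaving out Th1 sample 1 gave 3.10 (adjusted p = 0.0147), and leaving out Th1 sample 2 gave 0.98 (adjusted p = 0.294).

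Cd27 binds CD70 and supports T cell priming and memory. It was at 371, 267 and 327 scaled counts in the Th2 cultures, 120 and 148 in the Th1 cultures and 323 in the Th0 culture. The Th0 culture thus lay within the range of the Th2 cultures, and both Th1 cultures lay below it. The log2 fold change was 1.26 (SE 0.32, adjusted p = 0.0168), with log2 ratios of 1.63 and 1.00 in experiments 1 and 2. This call depended on the scaling: with TMM factors the log2 fold change was 0.61 (adjusted p = 0.169), with total endogenous counts 0.34 (adjusted p = 0.380), and it also failed without Th2 sample 3 (1.25, adjusted p = 0.0694).

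Tnfrsf14 encodes HVEM, a receptor of many blood cells and epithelia that binds LIGHT, lymphotoxin alpha, BTLA and CD160. It was at 225, 114 and 148 scaled counts in the Th2 cultures, 97.1 and 68.4 in the Th1 cultures and 118 in the Th0 culture. The groups did not overlap, but the log2 fold change of 0.97 (SE 0.38, adjusted p = 0.0724) did not pass. It did with experiment as a replicate block (1.05, adjusted p = 0.0195), and was 0.09 (adjusted p = 0.774) with total endogenous counts.

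**Figure D1:**
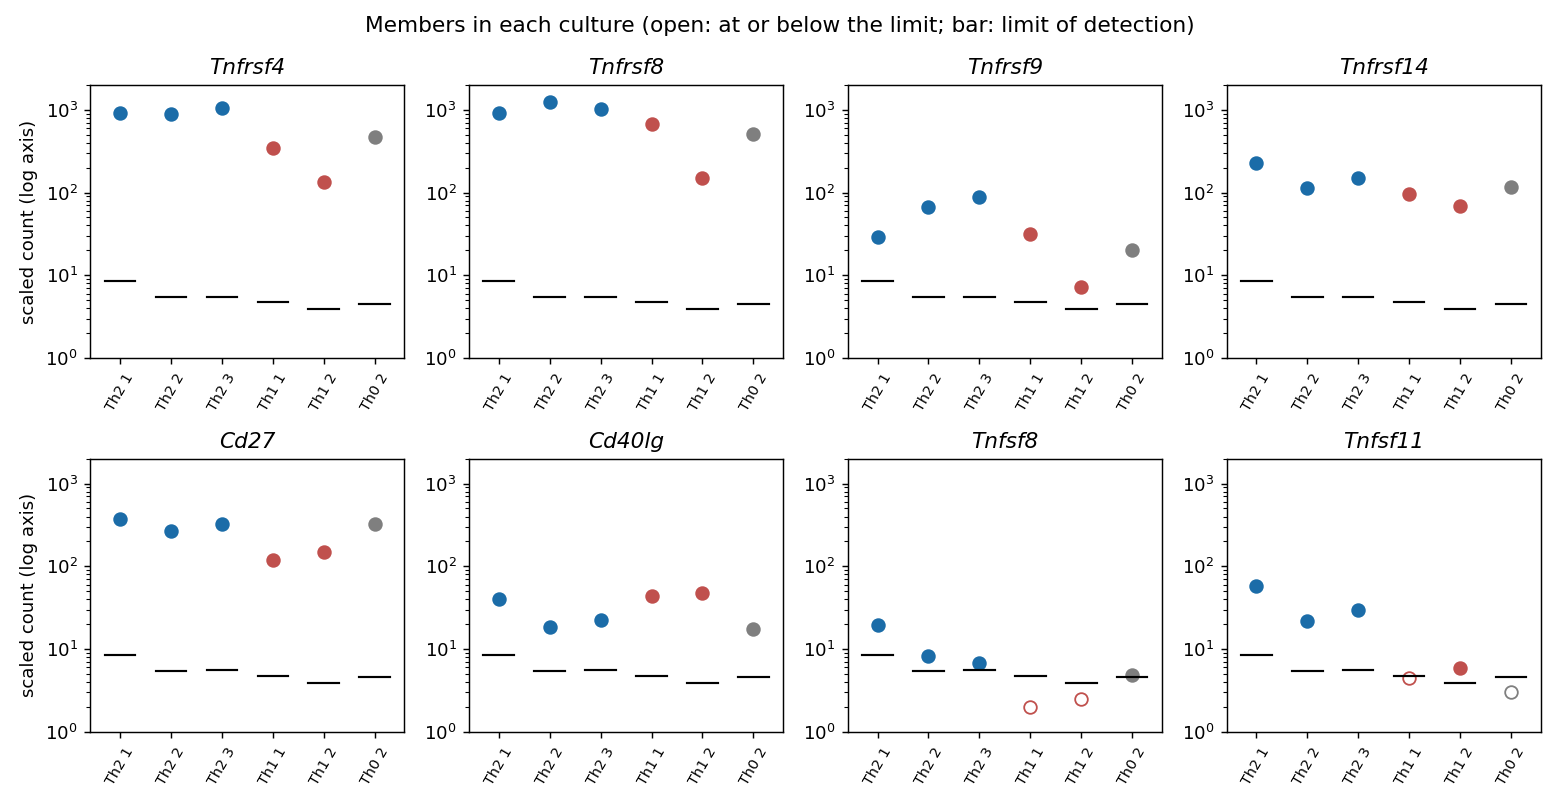
Scaled counts (log axis) of the 8 genes in each Th2, Th1 and Th0 culture, with 1 point per sample, open where the count was at or below the limit, and a bar at each sample's limit. Tnfrsf4 and Cd27 are separated between the 3 Th2 and 2 Th1 cultures, while Th1 sample 1 lies close to the Th2 cultures for Tnfrsf8 and Tnfrsf9.

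Among the ligands, Tnfsf11 encodes RANKL, which signals to RANK on dendritic cells and osteoclast precursors. The Th2 cultures had 57.9, 21.6 and 29.4 scaled counts (151, 68 and 79 counts), and the Th1 cultures had 4.44 and 5.88 (20 and 33 counts), the first of them below the limit. The Th0 culture, with 3.05 (12 counts), was below the limit too. Its log2 fold change was 2.80 (SE 0.55, adjusted p = 0.00690), and 2.29 without Th2 sample 1, the highest. The call held in 14 of 16 settings and was lost with total endogenous counts (1.84, adjusted p = 0.0501) and with all 12 samples in 1 fit (2.80, adjusted p = 0.0595). Within experiment 2, where both groups were above the limit, the log2 ratio was 2.12.

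Tnfsf8, the ligand of CD30, was near the limit throughout. The Th2 cultures had 19.6, 8.27 and 6.71 scaled counts (51, 26 and 18 counts), while both Th1 cultures lay below the limit with 2.00 and 2.49 (9 and 14 counts). The Th0 culture had 4.83 (19 counts) and stood just above it. The Th2 mean divided by the mean limit of the Th1 cultures gave a lower bound of 2.67-fold for Tnfsf8. This bound was 1.74-fold without Th2 sample 1 and 1.41-fold when scaled by total endogenous counts. Tnfsf8 was called by edgeR's fit to the counts (adjusted p = 0.0162), which does not test the bound. The gene entered that fit through the Th2 cultures alone. The call held in 8 of 15 settings. It was lost under each of the other 4 scalings, with all 12 samples in 1 fit, and without Th1 sample 1 or Th1 sample 2, which leaves 1 Th1 culture.

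Cd40lg, the helper signal to CD40 on B cells and dendritic cells, ran the other way from the remaining 7 genes. It was at 39.9, 18.4 and 22.4 scaled counts in the Th2 cultures, 44.4 and 47.0 in the Th1 cultures and 17.5 in the Th0 culture. All Th2 cultures lay below both Th1 cultures, but the log2 fold change of -0.77 (SE 0.43, adjusted p = 0.191) did not pass. Under the other 4 scalings it did, at -1.42 with TMM factors (adjusted p = 0.0450) and -1.70 with total endogenous counts (adjusted p = 0.0289), and it also passed without Th2 sample 1 (-1.16, adjusted p = 0.0450). Within experiments, Th2 minus Th1 came to -0.15 (the first) and -1.20 (the second) on the log2 scale.

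**Figure D2:**
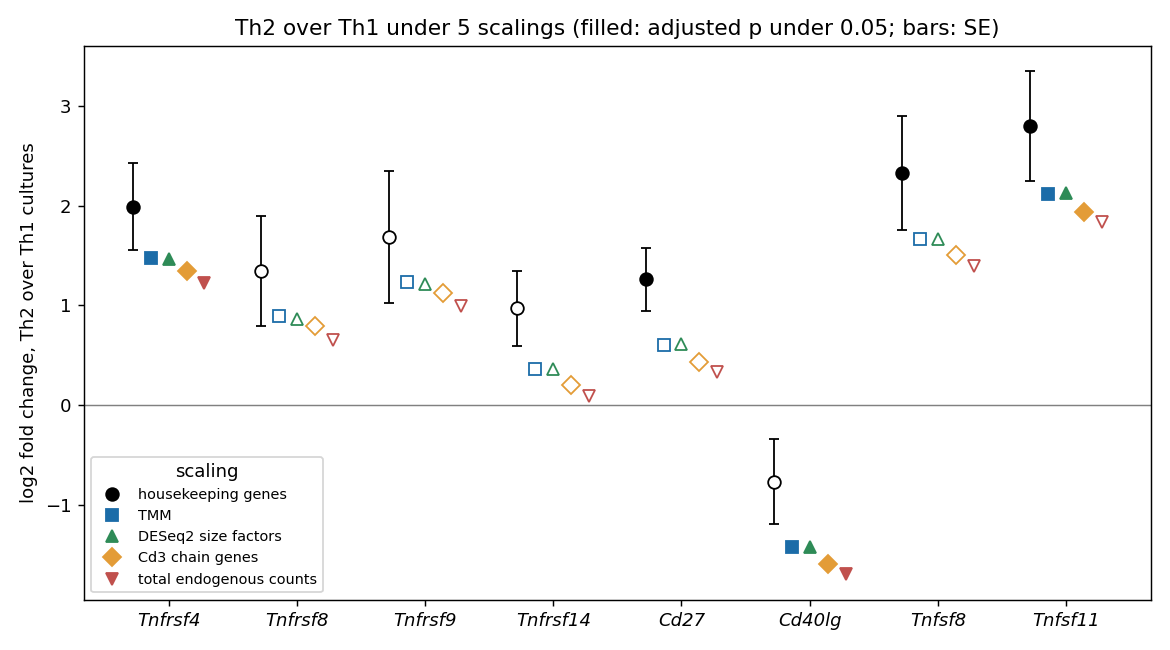
Log2 fold change of each gene in Th2 over Th1 cultures under 5 ways of scaling the samples, with 1 SE for the housekeeping scaling and filled symbols at an adjusted p under 0.05. Tnfrsf4 and the ligand Tnfsf11 stay above 0 under all 5, Tnfrsf4 with every symbol filled, and Cd40lg stays below 0, at -0.77 with housekeeping genes and -1.70 with total endogenous counts.

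**Figure D3:**
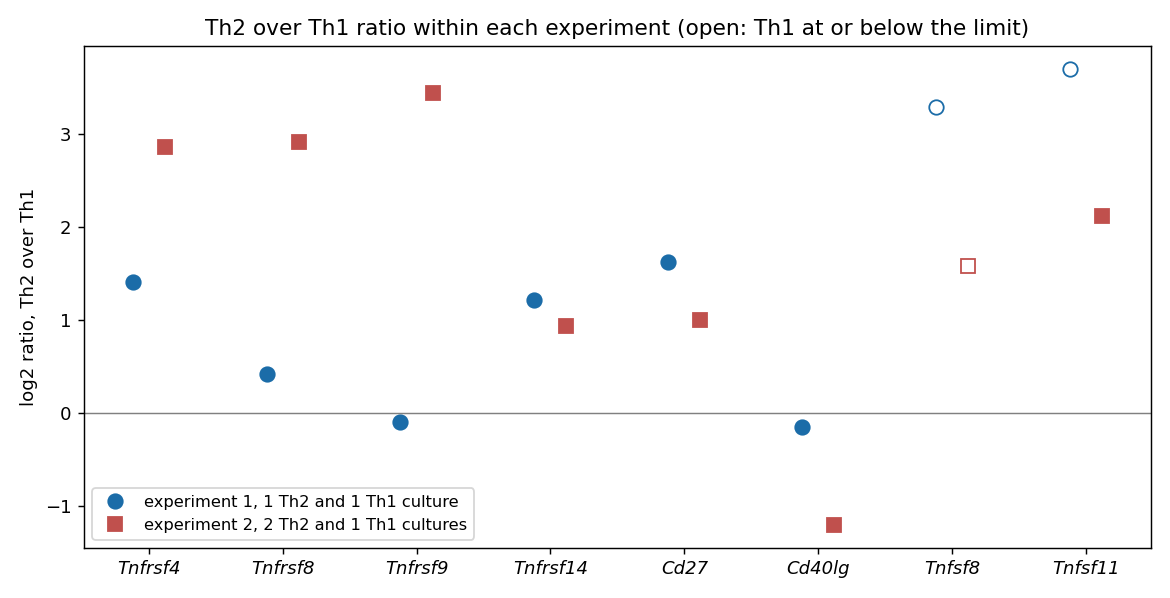
Log2 ratio of Th2 over Th1 scaled counts within experiment 1 (1 Th2 and 1 Th1 culture) and experiment 2 (2 Th2 and 1 Th1 cultures). Tnfrsf8 and Tnfrsf9 had ratios of 0.42 and -0.10 in experiment 1 and of 2.92 and 3.45 in experiment 2. Open symbols mark Tnfsf8 in both experiments and Tnfsf11 in experiment 1, whose Th1 culture was at or below the limit, so that these ratios cannot be ranked.

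The panel also held partners of these genes. Cd40, the receptor of CD40 ligand, was at 20.4 ± 7.46 scaled counts in Th2 cultures (SD, n = 3) and 8.02 ± 1.52 in Th1 cultures (SD, n = 2), a log2 fold change of 1.35 (SE 0.46, adjusted p = 0.0468). Tnfsf14, which encodes the HVEM ligand LIGHT, was at 49.5, 20.7 and 27.6 in Th2 cultures and 18.4 and 13.9 in Th1 cultures (adjusted p = 0.129). Lta was at 12.1 ± 1.70 in Th2 and 9.47 ± 1.04 in Th1 cultures and Btla at 16.4 ± 7.59 in Th2 and 20.7 ± 0.72 in Th1 cultures, and neither passed. Tnfrsf11a, the RANK gene, lay below the limit in all 6 cultures. Cd160 was above it in 1 of them, Th2 sample 3.

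Of the other TNF ligands, 1 of 7 tested passed, Tnfsf13b (BAFF, a B cell survival factor), with a log2 fold change of 1.34 (adjusted p = 0.0416) in Th2 cultures. Of the other TNF receptors, 1 of 6 tested passed, which was Cd40. Of 19 genes of TRAF and NF-kB signalling, 3 were higher in Th2 cultures and none was lower. The median log2 fold changes of these 3 lists were 0.35, 0.44 and 0.41, against 0.58 over all genes tested. Those called in the last were Nfkbiz (1.75, adjusted p = 0.0186), an IkB family regulator, the adaptor Traf3 (1.11, adjusted p = 0.0343) and the IkB family member Bcl3 (1.10, adjusted p = 0.0416), given as log2 fold changes. These 5 calls, of Tnfsf13b, Cd40, Nfkbiz, Traf3 and Bcl3, were lost under each of the other 4 scalings with the sign kept (Traf3 0.49, adjusted p = 0.186, and Cd40 0.77, adjusted p = 0.233, with TMM factors). Under those scalings Tnf (-1.54, adjusted p = 0.0227 with TMM factors) and Fas (-1.26, adjusted p = 0.0266) were called lower in Th2 cultures instead. Markers of B cells, which the splenocytes of the cultures can carry, moved in the same direction. Of 9 B cell markers tested, 6 were higher in Th2 cultures, with a summed level of 437 to 939 scaled counts in Th2 cultures, 114 to 339 in Th1 cultures and 592 in the Th0 culture. The part of B cells in the values of Cd40, Tnfsf13b and the 8 genes was not tested. With TMM factors none of the B cell markers passed. Of 11 T cell markers, 0 passed edgeR's adjusted test, 1 (Cd3d) had an unadjusted p under 0.05, and 1 to 3 were lower in Th2 cultures under the other 4 scalings.

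Across the 6 cultures the levels of some of these genes followed each other. Pearson's r of log2 scaled counts was 0.94 between Tnfrsf4 and Tnfrsf8, 0.93 between Tnfrsf8 and Tnfrsf9 and 0.88 between Tnfrsf4 and Tnfrsf9. Tnfrsf4 also had an r of 0.84 with Tnfrsf14 and of 0.77 with Cd27. Cd40lg had a negative r with each of the 5 receptors, from -0.63 with Cd27 to -0.20 with Tnfrsf14. Among 322 genes above the limit in all cultures, the genes most like Tnfrsf4 were Socs1 (r = 0.996) and Tnfsf13b (r = 0.995), those most like Tnfrsf8 were Il2ra (0.98) and Npc1 (0.98), and those most like Tnfrsf9 were Ctla4 (0.98) and Cd53 (0.96). For Tnfrsf14 they were Ikbkb and Il12rb1 (0.99 each), for Cd27 Traf5 and Atm (0.94 each), and for Cd40lg Fasl (0.93) and Tnf (0.92). These coefficients describe 6 samples that share a scaling factor per sample and 2 experiments.

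Skin samples of first lesions were compared with the Th2 cultures to set T cells from lesions beside the cells injected. The labels describe DO11.10 cells enriched with CD3 beads, while the study's text also names beads for the DO11.10 receptor. CD3 is carried by T cells of the host too, so the values need not be those of the injected cells, and their T cell markers were low. Cd3e, Lck, Cd5, Cd6 and Cd28 were at or below the limit in all 6 skin samples, and Cd3d was above it in 1, first lesion mouse 3. Others were detected more often. Cd2 was above the limit in 2 first lesion and 3 flare samples, and Tcf7 in 2 and 1. Zap70 was above it in 1 sample of each stage, Cd247 in 2 at flare and Cd4 in 1 at flare. Of the 11 T cell markers, 10 were called lower at flare than in Th2 cultures and 1, Tcf7, higher, though not with TMM factors. The 11 T cell markers together summed to 395 to 1379 scaled counts at first lesions and 836 to 1084 at flare, against 9563 to 12008 in the Th2 cultures, and between 0 and 5 of them were above the limit in a skin sample. Myeloid markers ran the other way, with sums of 2790 to 8550 at first lesions and 5519 to 9478 at flare, against 160 to 220.0 in the Th2 cultures. In these bulk samples fewer T cells and less RNA per T cell cannot be told apart. The part of the cell mixture in the differences below was not tested, and no level per T cell can be given where the Cd3 genes are not above the limit.

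At first lesions, Tnfrsf4, Tnfrsf8 and Cd27 were lower than in Th2 cultures, and none of the 8 genes was higher. Over the 397 genes tested, 22.2% were called lower and 37% higher. All but Tnfrsf14, that is 7 of the 8 genes, were at or below the limit in every skin sample. Tnfrsf4 had 7, 7 and 9 counts at first lesions, against 2384, 2807 and 2794 counts in the Th2 cultures. Measured against the limit, it was at least 8.57-fold lower at first lesions (adjusted p = 6.31e-05), and at least 21.0-fold lower without mouse 1, whose limit of 242 scaled counts was the highest. Tnfrsf8 had 4, 7 and 9 counts, against 2362, 3882 and 2736 in the Th2 cultures, and was at least 9.51-fold lower (adjusted p = 2.39e-05). Cd27 had 9, 7 and 13 counts, against 967, 840 and 877, and was at least 2.90-fold lower (adjusted p = 0.000889). Without mouse 1 these bounds were 23.4-fold and 7.13-fold. The p-values are of edgeR's fit to the counts and do not test the bounds. These 3 genes entered the fit through the Th2 cultures alone. Their calls held in 16 of 16 settings.

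The limits of the skin samples were uneven, at 242, 35.7 and 54.5 scaled counts in first lesion mice 1, 3 and 6 and at 135, 159 and 66.0 in flare mice 1, 2 and 12. The mean levels of Tnfrsf9, Cd40lg, Tnfsf8 and Tnfsf11 in Th2 cultures lay under the mean limit of both stages (111 and 120), so no fold is given for them over all 3 mice. Tnfrsf9 averaged 61.5 ± 29.7 scaled counts in the Th2 cultures (SD, n = 3), above the limits of first lesion mice 3 and 6, where it had 1 and 7 counts. Its log2 fold change at first lesions was -2.03 (adjusted p = 0.125). It was called lower in 5 of 16 settings, among them TMM factors (-2.90, adjusted p = 0.00618) and without mouse 1 (-3.55, adjusted p = 0.00105), where the bound was at least 1.36-fold lower. Tnfsf11 (adjusted p = 0.759) was called lower in 2 settings, after background subtraction (adjusted p = 0.00168) and without mouse 1 (adjusted p = 0.0372), and Cd40lg (adjusted p = 0.489) in 1, after background subtraction (adjusted p = 0.00402). Tnfsf8 (adjusted p = 0.392) was called in none of 15 settings.

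Tnfrsf14 was the exception among the 8 genes. At first lesions it had 26, 54 and 124 counts in mice 1, 3 and 6, above the limit in mice 3 and 6, with 189, 83.4 and 146 scaled counts, against 225, 114 and 148 in the Th2 cultures. Mouse 6 lay within the range of the Th2 cultures and mouse 3 below it. The value of mouse 1 was below its limit of 242 scaled counts, so mouse 1 cannot be placed. The log2 fold change at first lesions was -0.25 (SE 0.44, adjusted p = 0.632). It was -0.80 with TMM factors (adjusted p = 0.0374) and -0.78 with DESeq2 size factors (adjusted p = 0.0370), and 0.020 without mouse 3, so its direction was not settled.

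At flare the same 3 receptors were lower than in Th2 cultures. Among the 403 genes tested, 21.6% were called lower and 51.6% higher. Tnfrsf4 had 4, 9 and 6 counts in mice 1, 2 and 12, Tnfrsf8 had 3, 2 and 7, and Cd27 had 9, 3 and 8, all below the limit. Against the limit they were at least 7.92-fold (adjusted p = 4.26e-06), 8.79-fold (adjusted p = 8.60e-07) and 2.68-fold lower (adjusted p = 9.15e-05) at flare than in the Th2 cultures. Here too the p-values are of the fit and not of the bounds, and the genes entered it through the Th2 cultures alone. Tnfrsf9 had 1, 4 and 3 counts at flare and was called lower (adjusted p = 0.0139). Its mean in Th2 cultures (61.5 scaled counts) was below the mean limit of the flare samples (120), so no fold can be given. The call was lost without flare mouse 12 (adjusted p = 0.0686) and with all 12 samples in 1 fit (adjusted p = 0.0878).

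Tnfsf8 was called higher at flare (log2 fold change 1.62, adjusted p = 0.0306), with 5, 7 and 8 counts at flare against 51, 26 and 18 in the Th2 cultures. All 3 flare samples were below the limit, and dividing these few counts by small scaling factors gave 38.6, 46.8 and 25.7 scaled counts. The direction turned when the negative control mean was subtracted (-0.27, adjusted p = 0.653), so this call gives no direction for Tnfsf8. Cd40lg had 11, 9 and 11 counts at flare, below the limit in each mouse, and its log2 fold change of 1.08 (adjusted p = 0.0666) changed sign under TMM factors (-0.017) too, although it passed with experiment as a replicate block (0.83, adjusted p = 0.0403). Tnfsf11 had 4, 4 and 8 counts (adjusted p = 0.516) and was called lower in 3 of 16 settings, with TMM factors (-1.43, adjusted p = 0.0163), with DESeq2 size factors and after background subtraction.

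Tnfrsf14 had 37, 23 and 70 counts at flare, above the limit in mice 1 and 12, with 286, 154 and 225 scaled counts. Its log2 fold change over Th2 cultures was 0.44 (SE 0.34, adjusted p = 0.264), and -0.62 with TMM factors (adjusted p = 0.121). HVEM is also made by myeloid cells. Tyrobp, a myeloid signalling adaptor, was at 3978, 1398 and 2475 scaled counts at first lesions and 1482, 1813 and 3791 at flare, against 17.6, 12.7 and 19.4 in the Th2 cultures.

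**Figure D4:**
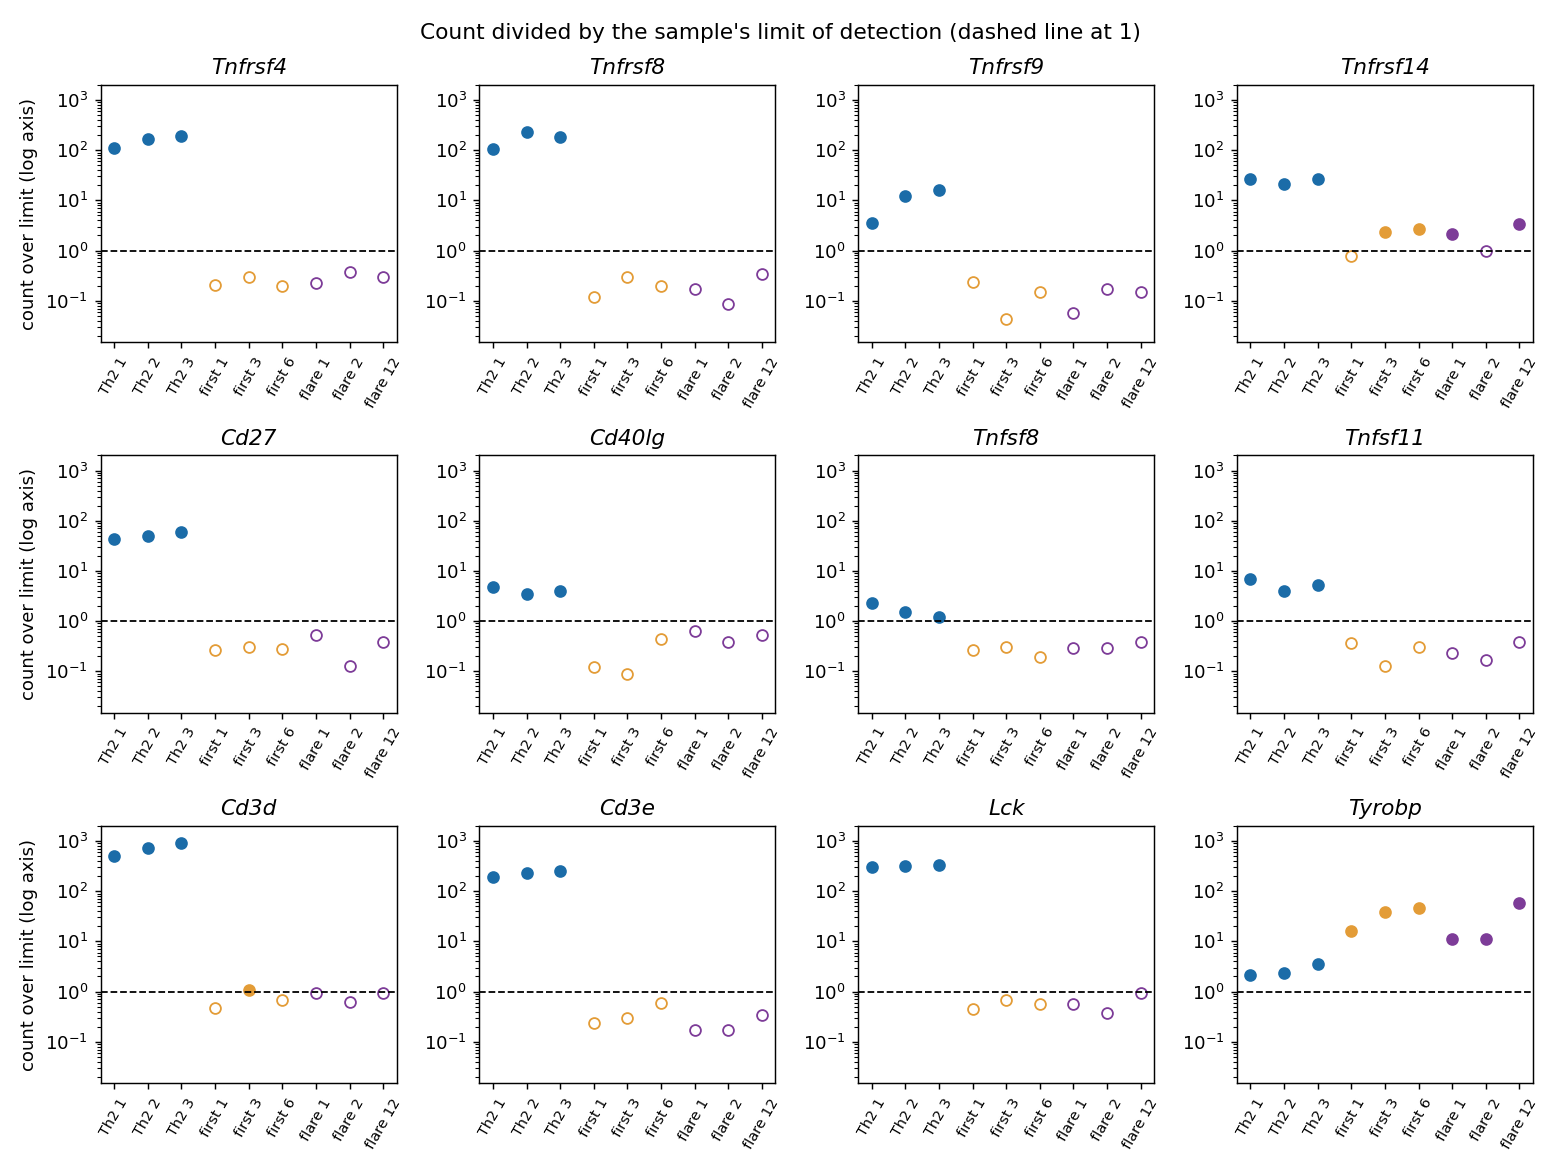
Count divided by the sample's limit of detection (log axis, dashed line at 1) for the 8 genes, 3 T cell genes and the myeloid gene Tyrobp, in Th2 cultures, first lesions and flare, open where at or below the limit. Except for Tnfrsf14, every one of the 8 genes lies at or below the line in all 6 skin samples, as Cd3e and Lck do, while Tyrobp lies above it in each.

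Among other genes of the family, Ltb, a lymphotoxin subunit made by lymphocytes, was at or below the limit in all skin samples and at least 6.53-fold lower at first lesions (16.0-fold without mouse 1, adjusted p = 7.53e-05 with it) and at least 6.03-fold lower at flare (adjusted p = 1.42e-05) than in Th2 cultures. Tnfsf12, which encodes TWEAK, was below the limit in the Th2 cultures and at least 35.7-fold higher at first lesions (21.5-fold without mouse 1, adjusted p = 0.000119 with it) and 34.4-fold at flare (adjusted p = 1.27e-06). The p-values of Ltb and Tnfsf12 are of the fit and do not test these bounds. Tnf was at 117 ± 44.1 scaled counts at first lesions and 266 ± 152 at flare, against 12.2 ± 2.71 in Th2 cultures (SD, n = 3 each), with log2 fold changes of 3.25 (adjusted p = 0.000697) and 4.40 (adjusted p = 2.82e-05). Ltbr, the lymphotoxin beta receptor of stromal and myeloid cells, rose by 5.35 (adjusted p = 2.57e-05) and 5.49 (adjusted p = 9.56e-07) on the log2 scale at first lesions and at flare. Tnfrsf1b, a TNF receptor, was at 419 ± 62.4 at flare against 101 ± 37.1 in Th2 cultures (SD, n = 3 each; log2 fold change 2.05, adjusted p = 0.000326).

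Of the other TNF ligands tested, 2 of 8 were called higher and 1 lower at first lesions, and 4 and 1 at flare. Of the other TNF receptors tested, 1 of 5 was called higher at first lesions and 4 of 5 at flare, and none lower. Some of those higher calls at flare, of Lta and Fas, rest on samples that were all at or below the limit, and Cd40 and Tnfsf14 were above it in 1 flare sample each, so they give no measured rise. Among TRAF and NF-kB genes, 5 of 18 were called higher and 3 lower at first lesions, and 13 of 19 higher and 1 lower at flare. Of those higher at flare, Traf2, Traf4 and Traf5 were above the limit in 1 flare sample each, so they too give no measured rise. Those called lower at first lesions were Nfkb1, Traf1 and Traf6, and the 1 at flare was Traf1. Traf1 counts exceeded the limit in no skin sample. Its mean in Th2 cultures (72.2 scaled counts) lay under the mean limits of first lesions (111) and flare (120). The calls of Traf1 thus give no measured fall over all mice of a stage. Without first lesion mouse 1 the bound for Traf1 was at least 1.60-fold lower at first lesions. Nfkb1 had a log2 fold change of -1.35 at first lesions (adjusted p = 0.00774), and -1.91 with TMM factors (adjusted p = 0.000231). The median log2 fold changes of ligands, receptors and signalling genes were 1.01, 1.19 and 0.36 at first lesions, against 0.57 over all genes tested, and 1.04, 2.05 and 0.99 at flare, against 1.03. With TMM factors 2 ligands were called higher and 2 lower at first lesions and 3 and 2 at flare, and 1 receptor higher and none lower at first lesions and 2 and 1 at flare, where the receptor called lower was Tnfrsf13b (-1.24, adjusted p = 0.0191). Tnfrsf13b was at or below the limit in all 3 flare samples. Its mean in Th2 cultures (46.8 scaled counts) lay under their mean limit (120), so this call gives no measured fall. The signalling counts were then 3 higher and 5 lower at first lesions and 7 higher and 6 lower at flare. The calls of Ltb, Tnfsf12, Tnf, Ltbr, Nfkbia, Nfkbiz and Tnfaip3 at both stages and of Tnfrsf1b at flare kept their sign and passed with TMM factors too, with Tnfaip3 at 1.44 (adjusted p = 0.00914) and 1.30 (adjusted p = 0.00331). The inhibitor gene Nfkbia was at 1102 ± 563 scaled counts at first lesions and 1516 ± 733 at flare, against 69.0 ± 14.9 in Th2 cultures (SD, n = 3 each), and Nfkbiz had log2 fold changes of 3.99 (adjusted p = 0.000217) and 4.78 (adjusted p = 3.13e-06). Tnfaip3, which encodes the NF-kB inhibitor A20, rose by 2.01 (adjusted p = 0.00349) and 2.49 (adjusted p = 0.000125). These rises stood beside the higher myeloid sums given above, and the share of each cell type in them was not tested. Tnfrsf11a, the receptor of RANKL, was above the limit in flare mice 1 and 2 (28 and 38 counts) and below it in the other 4 skin samples, and was not tested.

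Flare was compared with first lesions to see whether the genes differ between the first course and its recurrence. None of the 8 genes was called, and over 277 genes tested 0 were called by edgeR (percent called 0), with 30 at an unadjusted p under 0.05. DESeq2 called 9 genes after adjustment and 48 before it, and limma called 0 and 28. Only Tnfrsf14 could be fitted, with 286, 154 and 225 scaled counts at flare and 189, 83.4 and 146 at first lesions. Of these values, those of flare mouse 2 and first lesion mouse 1 were below the limit. The groups overlapped, and the log2 fold change was 0.70 (SE 0.44, adjusted p = 0.550), between 0.31 and 0.94 over 15 settings. For the 7 genes at or below the limit, exact two-sided permutation tests on log2 scaled counts gave p between 0.1 and 0.9, where 0.1 is the smallest that 3 against 3 samples allow. Cd40lg had the p of 0.1, with 84.9, 60.2 and 35.4 scaled counts at flare and 29.0, 3.09 and 23.6 at first lesions, from 9 to 11 and 2 to 20 counts, all below the limit. The counts before scaling overlapped between the stages, so this p gives no direction for Cd40lg.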

How the data were processed

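NanoString digital counts were used as the authors deposited them, as raw counts per probe of a mouse immunology code set for 547 endogenous genes, 14 housekeeping genes, 6 positive and 8 negative controls in 12 samples; the study's own software scaling is not part of these values. Genes and gene lists were chosen with earlier results of these data known. Scaling factors were geometric means over the 7 housekeeping genes detected in every sample. A gene entered a comparison when its number of samples over the limit was no smaller than the size of the smaller group. The test was edgeR's (version 4.0.16, under R 4.3.3) quasi-likelihood F test with the scaling as an offset, using only the groups compared, with Benjamini-Hochberg adjustment over all genes tested. Each SE was derived from the F statistic, as the size of the log2 fold change divided by its square root. For a group with no sample over the limit a bound is given, the other group's mean divided by the mean limit in scaled counts. An adjusted p beside a bound is that of edgeR's fit to the counts and does not test the bound. Under the filter, such a gene entered its comparison through the other group alone. The test was run on simulated data first, and its outcome there is not used as support here.

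All listed genes are named in every comparison, with their partners on the panel, up to 4 called genes of each related list by size of change, and the 2 most similar genes per member over the cultures. Alternatives were TMM factors, DESeq2 size factors, total endogenous counts or the Cd3 chain genes for scaling, no filter, at least 50 counts, DESeq2's Wald test (DESeq2 1.42.0), limma (3.58.1) on log2 of scaled counts plus 1, subtraction of the negative control mean, all 12 samples in 1 fit, experiment as a replicate block, and each sample left out in turn. Experiment numbers come from the sample titles; the deviations of Th2 and Th1 samples between experiments had a Pearson r of 0.18 over 400 genes. Gene positions and promoters were read from RefSeq tables. Cd40lg has no promoter shown.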

Additional observations from a re-analysis of the deposited data

Results flagged for a closer look

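Tnfrsf9 (4-1BB) had ratios on opposite sides of 0 in the 2 experiments. Its log2 ratio of Th2 over Th1 scaled counts was -0.10 in experiment 1, with 29.1 scaled counts in the Th2 and 31.3 in the Th1 culture, and 3.45 in experiment 2, with 67.7 and 87.6 in the Th2 cultures and 7.13 in the Th1 culture. Experiment 1 had 1 culture of each kind and so no spread, and its ratio is no measured decrease. Each experiment had 1 Th1 culture, and the difference between the experiments was not tested.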

How the results depend on the processing

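Of the calls above, that of Tnfrsf4 in Th2 over Th1 cultures and those of Tnfrsf4, Tnfrsf8 and Cd27 at both skin stages held in 16 of 16 settings. The number of genes called of the 8 was 4 in Th2 over Th1 cultures (1 with all 12 samples in 1 fit, 2 with total endogenous counts, of which 1 was higher, and 3 to 5 when 1 sample was left out), 3 at first lesions over Th2 cultures (5 with TMM factors or DESeq2 size factors, 6 after background subtraction, 3 to 5 when 1 sample was left out, with 5 without first lesion mouse 1) and 5 at flare over Th2 cultures (3 with all 12 samples in 1 fit, 4 to 6 when 1 sample was left out). With experiment as a replicate block it was 5, 3 and 6, with Tnfrsf14 added in the first comparison and Cd40lg in the last, and no other call of these genes changed. Flare over first lesions had 0 in every setting, and Th2 over Th1 cultures had at most 6 in any setting. Signs turned in skin for 4 genes. At flare over Th2 cultures these were Cd40lg (-1.39 after background subtraction, -0.017 with TMM factors), Tnfrsf14 (-0.055, -0.62 and, with DESeq2 size factors, -0.52), Tnfsf8 (-0.27 after background subtraction) and Tnfsf11 (0.099 without Th2 sample 1; its lowest value with 1 sample left out kept the sign, at -0.67). At first lesions they were Tnfsf8 (-1.18 after background subtraction, -0.099 without mouse 1), Tnfrsf14 (0.020 without mouse 3, 0.064 without Th2 sample 1) and Tnfsf11 (0.26 without mouse 3, 0.11 without mouse 6, 0.20 without Th2 sample 1). With 1 sample left out, the values of these 3 genes that kept their sign reached 1.64, -0.49 and -1.72. Over all genes, 127 were called in Th2 over Th1 cultures, against 49 with all samples in 1 fit, 79 with at least 50 counts, 70 with the Cd3 chain genes, 64 with DESeq2 size factors, 67 with TMM factors (36 higher, 31 lower), 76 with total endogenous counts, 75 without Th1 sample 2 and 63 without Th2 sample 3. At first lesions 235 were called, and 355 with no filter. The median log2 fold change of all genes in Th2 over Th1 cultures was 0.02 with TMM factors and -0.24 with total endogenous counts, against 0.58. At first lesions it was 0.57 (0.01 with TMM factors) and at flare 1.03 (-0.07). Higher calls made up 85.8%, 62.6% and 70.5% of calls in these 3 comparisons, and 53.7%, 49.6% and 48.3% with TMM factors. The Cd3 chain genes were not used to scale skin samples, since they lay at or below the limit in most of them. The cause of these changes was not tested. The limits of detection bounded what the skin samples could show. At first lesions they lay at 242, 35.7 and 54.5 scaled counts (mice 1, 3 and 6). At flare they lay at 135, 159 and 66.0 (mice 1, 2 and 12).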
